A study of Homo sapiens with 6 samples.

Results

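The genes described here were 10 tetraspanins, CD9, CD63, CD81, CD82, CD151, TSPAN1, TSPAN8, TSPAN13, TSPAN14 and TSPAN15, taken by symbol from a table of 58735 genes. The rule that took them used no measured values, but the list was chosen with earlier results of these data known. All 10 members had enough counts to be tested, among 15319 genes tested in all. Bulk RNA-seq was done on AsPC-1, an established human pancreatic cancer cell line, after transduction with an empty lentivirus (Vector, n = 3) or with a lentivirus carrying MMP28 (OE-MMP28, n = 3). MMP28 encodes a secreted matrix metalloproteinase, and the comparison asks which transcripts differ between cells given MMP28 and cells given the empty virus. Per the study's methods the MMP28 virus also carried GFP and a puromycin resistance gene and stably transduced cells were used, and the Vector cells carried empty virus. The labels give the AsPC-1 cells as wild type. All 6 libraries came from a single cell line, and the labels do not say that the replicates of a group were separate cultures, so the p-values measure only the spread between these libraries, which may be technical.

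Tetraspanins are small proteins that cross the plasma membrane or endosomal membranes several times and gather integrins, immunoglobulin-like proteins, proteases and each other into membrane microdomains. CD9, CD63 and CD81 are widely used as surface markers of extracellular vesicles, and TSPAN8 and TSPAN1 are typical of digestive epithelia and carcinomas. TSPAN14 and TSPAN15 belong to the TspanC8 group, which escorts the sheddase ADAM10 from the endoplasmic reticulum to the cell surface.

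Among the members, TSPAN8 and CD9 rose and TSPAN14 fell in OE-MMP28, and the promoter windows of these 3 genes are printed to show how unlike their start regions are in base composition. Each line holds the 250 bases upstream of a RefSeq start on GRCh38.p14, written 5′ to 3′ on the gene's strand, with CpG dinucleotides (CG, which reads the same on both strands) in capitals. The windows lie at chr12:71158000-71158249 on the minus strand for TSPAN8, chr12:6199696-6199945 on the plus strand for CD9 and chr10:80454060-80454309 on the plus strand for TSPAN14.
TSPAN8: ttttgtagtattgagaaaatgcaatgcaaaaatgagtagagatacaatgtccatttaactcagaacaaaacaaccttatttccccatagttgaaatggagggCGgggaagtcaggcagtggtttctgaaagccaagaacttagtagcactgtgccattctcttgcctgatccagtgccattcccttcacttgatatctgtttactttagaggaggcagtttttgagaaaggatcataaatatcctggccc
CD9: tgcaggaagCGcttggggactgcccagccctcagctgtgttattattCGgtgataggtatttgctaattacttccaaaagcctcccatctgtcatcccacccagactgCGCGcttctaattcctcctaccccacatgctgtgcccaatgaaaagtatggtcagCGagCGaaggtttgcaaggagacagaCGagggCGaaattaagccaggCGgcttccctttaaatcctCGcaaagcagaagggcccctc
TSPAN14: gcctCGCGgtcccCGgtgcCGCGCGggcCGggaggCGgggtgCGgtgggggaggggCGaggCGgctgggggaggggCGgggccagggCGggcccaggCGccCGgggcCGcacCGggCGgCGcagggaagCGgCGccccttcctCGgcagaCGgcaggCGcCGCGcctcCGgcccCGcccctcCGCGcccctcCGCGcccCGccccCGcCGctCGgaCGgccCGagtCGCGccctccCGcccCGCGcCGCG
The TSPAN8 window held 1 CpG at 40.8% G and C, the CD9 window 10 CpGs at 52.8% and the TSPAN14 window 45 CpGs at 88.0%. Over 35116 RefSeq windows of the same length, 93.9% held at least 1 CpG, the median was 11 and the median G and C content was 58.0%. As few CpGs as in TSPAN8, or fewer, were found in 14.7% of windows, and as many as in TSPAN14, or more, in 0.589%. Windows were matched for 8 of the 10 members, and the other 5 of these held 4 CpGs in TSPAN1, 12 in CD63, 14 in TSPAN15, 22 in TSPAN13 and 26 in CD82. These counts describe the sequence, and which start site the cells used was not tested. The 5′ end of TSPAN8 in the deposited annotation lies 283899 bases upstream of the RefSeq start used here. The whole TSPAN8 window therefore lies within the gene as deposited. For CD9 and TSPAN14 the deposited 5′ end lies 231 and 144 bases from that start, inside the printed window. Part of the CD9 window and part of the TSPAN14 window therefore also lie within their genes as deposited.

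The 6 libraries held 13633249 to 16691458 counts, all 3 OE-MMP28 libraries being deeper than the Vector libraries, and 3 counts, taken as the floor, corresponded to 0.18 to 0.22 CPM (the count scaled to library size). Intervals and floors of this kind cover counting error only. Mitochondrially encoded genes took 11.9 to 14.8% of the counts in Vector and 8.8 to 11.9% in OE-MMP28. All 7 ductal epithelial markers were detected in every library, with a summed level of 2592.4 to 3539.5 FPKM in Vector and 3580.3 to 4374.5 FPKM in OE-MMP28, so this sum moved with the group. KRT19 and MUC1 rose and CDH1 fell among them, and their part in the results on the members was not tested. Among the 7 leukocyte markers, 5 were under 1 FPKM in all libraries and PTPRC, the pan-leukocyte gene, had at most 1 count, whereas LYZ fell from 175.7 ± 11.6 to 128.1 ± 20.7 FPKM (SD, n = 3 each, adjusted p = 0.0376, edgeR), and its part in the results was not tested either. Without LYZ and LUM, the marker sums were 1.06 to 1.19 FPKM in Vector and 0.794 to 0.955 in OE-MMP28 for leukocytes, and at most 0.166 FPKM for fibroblasts. LUM, a matrix proteoglycan in the fibroblast list, was at 33.8 to 40.9 FPKM in Vector and 39.2 to 56.9 FPKM in OE-MMP28, and the full fibroblast sums were 33.9 to 40.9 and 39.3 to 57.0 FPKM. Of the 5 endothelial markers, KDR and TEK were at 0 in all 6 libraries, and the summed level was 0.0441 to 0.17 FPKM in Vector and 0.179 to 0.293 FPKM in OE-MMP28. PECAM1 in that list had 0, 4 and 4 counts in Vector and 13, 21 and 30 in OE-MMP28 (ratio of summed counts 7.14 in CPM, 95% counting interval 3.41 to 17.2). It entered the test only through the OE-MMP28 libraries, so its call as higher (adjusted p = 0.00361, edgeR) is no support for a rise. The part of PECAM1 in the results was not tested. MMP28 itself was measured at 5.17, 9.11 and 8.43 FPKM in Vector replicates 1, 2 and 3 and at 13.1, 13.9 and 15.1 FPKM in OE-MMP28, with no overlap, a 1.85-fold higher mean and a log2 fold change of 0.90 (SE 0.19, adjusted p = 0.00226, edgeR). FPKM is fragments mapped to a gene, scaled by its length and by the library total, and log2 fold changes throughout are OE-MMP28 minus Vector from edgeR's quasi-likelihood fit over all tested genes, with Benjamini-Hochberg adjustment and a threshold of 0.05.

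With this threshold, 2 of the 10 tetraspanins rose and 1 fell in OE-MMP28, which is 30.0% of the members against 23.4% of all genes tested. By direction, 11.7% of tested genes rose and 11.6% fell. The median log2 fold change of the members was 0.15, beside 0.01 for all tested genes, and their median absolute change was 0.27, beside 0.33. The FPKM of the groups did not overlap for 3 members, the same 3 genes, against 38.1% of all tested genes. The members were therefore called about as often as other genes, and none passed an unadjusted threshold of 0.05 combined with an absolute log2 fold change over 1, which 8.5% of tested genes did. In bulk RNA, fewer cells of a kind and less RNA per cell cannot be told apart, and transcript levels do not give protein at the membrane.

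**Figure D1:**
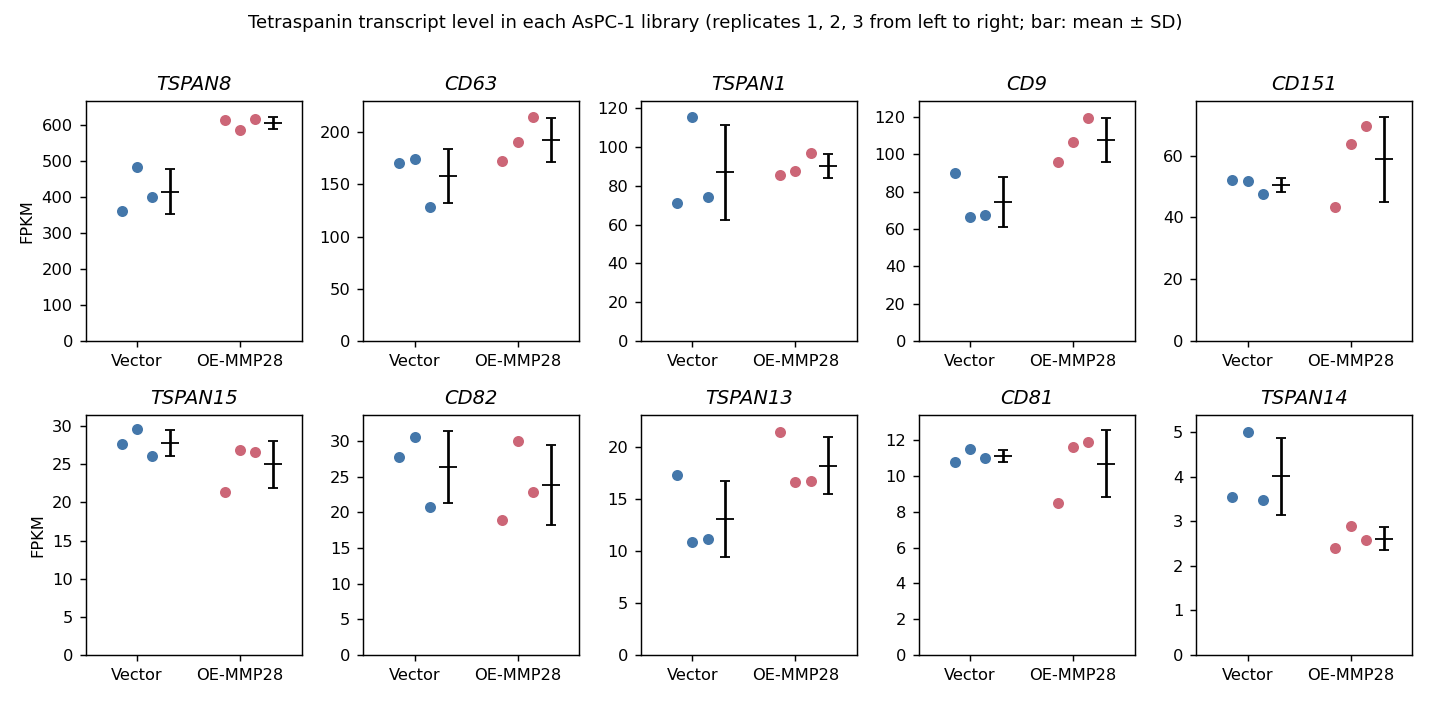
Transcript level (FPKM, linear axes from 0) of each tetraspanin in the Vector (blue) and OE-MMP28 (red) libraries, as points for replicates 1, 2 and 3 from left to right, with the mean and SD as bars. The OE-MMP28 points lie above all Vector points for TSPAN8 and CD9 and below them for TSPAN14, and the groups overlap in the other 7 panels.

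TSPAN8 (ENSG00000127324, chromosome 12, 71125085-71441898, minus strand), a surface tetraspanin of digestive tract epithelium and of many carcinomas, was the most abundant member and one of the most abundant transcripts in the cells, only 38 genes having a higher mean FPKM. It stood at 360.2, 483.4 and 401.0 FPKM in Vector replicates 1, 2 and 3 and at 613.1, 586.1 and 616.0 FPKM in the OE-MMP28 replicates. Every OE-MMP28 library was above every Vector library, and the Vector libraries were the more spread of the groups. The mean rose from 414.9 ± 62.8 to 605.1 ± 16.5 FPKM (SD, n = 3 each), a ratio of 1.46, with a log2 fold change of 0.56 (SE 0.15, 95% interval 0.25 to 0.86, adjusted p = 0.00908). Leaving out any single library kept this call, with log2 fold changes of 0.46 to 0.68.

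CD9 (ENSG00000010278, chromosome 12, 6199715-6238271, plus strand) organises surface complexes with immunoglobulin-like partners and integrins and is a common vesicle marker. Its level was 90.2, 66.6 and 67.4 FPKM in Vector and 96.0, 106.8 and 119.6 FPKM in OE-MMP28. The groups did not overlap, but Vector replicate 1 came close to OE-MMP28 replicate 1. The mean rose from 74.7 ± 13.4 to 107.5 ± 11.8 FPKM (SD, n = 3 each), a ratio of 1.44, with a log2 fold change of 0.54 (SE 0.16, 95% interval 0.21 to 0.86, adjusted p = 0.0173). The rise was not past the threshold without Vector replicate 3 (adjusted p = 0.10), OE-MMP28 replicate 2 (adjusted p = 0.0683) or OE-MMP28 replicate 3 (adjusted p = 0.0766), and limma on log2(FPKM + 1) gave an adjusted p of 0.0626.

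The other members best known from vesicles, CD63 and CD81, did not pass the threshold. CD63 (chromosome 12, 55725323-55729707), the tetraspanin of late endosomes and lysosomes, was measured at 170.4, 174.5 and 128.2 FPKM in Vector and at 172.1, 190.8 and 214.5 FPKM in OE-MMP28. OE-MMP28 replicate 1 fell inside the Vector range, and the log2 fold change was 0.30 (SE 0.16, 95% interval -0.02 to 0.62, adjusted p = 0.172). CD81 (chromosome 11, 2376177-2397419), an entry receptor of hepatitis C virus, was at 10.8, 11.5 and 11 FPKM in Vector and at 8.48, 11.6 and 11.9 FPKM in OE-MMP28. Its log2 fold change was -0.04, with a 95% interval of -0.38 to 0.29. With 3 libraries a group, a change of either sign within these bounds was not excluded. The vesicle trio was therefore measured at unlike levels, CD81 being the lowest of the 3 in every library, and CD9 alone of them passed the threshold; the difference between their changes was not tested.

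CD151 and CD82 are surface tetraspanins known from cell adhesion and motility. CD151 (chromosome 11, 832843-839831), which binds laminin-binding integrins directly, was at 52.0, 51.7 and 47.7 FPKM in Vector and at 43.3, 63.8 and 69.5 FPKM in OE-MMP28. The OE-MMP28 libraries lay on both sides of the Vector libraries, and the log2 fold change of 0.24 (SE 0.17, adjusted p = 0.333) moved from 0.10 without OE-MMP28 replicate 3 to 0.40 without OE-MMP28 replicate 1 (adjusted p = 0.0538). Exons of POLR2L, an RNA polymerase subunit gene on the opposite strand with up to 2185 counts a library, cover 6.53% of the CD151 exon bases. Without strand information reads from that stretch cannot be assigned. The same limit holds for 9.0% of the CD63 exon bases (AC009779.2, up to 113 counts a library). It also holds for 6.91% of those of CD82 (AC010768.1, up to 3 counts) and for at most 1.31% in CD81 and TSPAN14. CD82 (chromosome 11, 44564427-44620363), first described as a suppressor of metastasis, was at 27.8, 30.6 and 20.8 FPKM in Vector and at 18.9, 30.0 and 22.9 FPKM in OE-MMP28. The groups overlapped almost fully, with a log2 fold change of -0.13 (SE 0.18, adjusted p = 0.651).

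TSPAN1 and TSPAN13 complete the members outside chromosome 10. TSPAN1 (chromosome 1, 46175073-46185958), abundant in secretory epithelia, was at 71.3, 115.2 and 74.2 FPKM in Vector and at 85.3, 87.4 and 96.9 FPKM in OE-MMP28. Vector replicate 2 was the highest library of all 6, the log2 fold change was 0.06 (SE 0.17, adjusted p = 0.838), and without that replicate it was 0.31 with an adjusted p of 0.176. TSPAN13 (chromosome 7, 16753535-16784536) was at 17.3, 10.9 and 11.1 FPKM in Vector and at 21.4, 16.6 and 16.7 FPKM in OE-MMP28. Replicate 1 was the highest library of each group, and Vector replicate 1 exceeded OE-MMP28 replicates 2 and 3. The log2 fold change of TSPAN13 was 0.49 (SE 0.19, 95% interval 0.10 to 0.88, adjusted p = 0.0662). Without Vector replicate 1 it was 0.74 and past the threshold (adjusted p = 0.00516).

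The ADAM10 escorts TSPAN14 and TSPAN15 both lie on chromosome 10. TSPAN14 (ENSG00000108219, 80454166-80533123, plus strand) was the lowest member by FPKM, at 3.53, 5.00 and 3.48 FPKM in Vector and 2.39, 2.88 and 2.57 FPKM in OE-MMP28, from 676 to 1210 counts a library. Its FPKM was scaled by a length of 17888 bases. TSPAN13, scaled by 2224 bases, had 327 to 753 counts a library, so the last place of TSPAN14 depends on this scaling. All OE-MMP28 libraries were below all Vector libraries, and the mean fell from 4.01 ± 0.865 to 2.61 ± 0.249 FPKM (SD, n = 3 each), a ratio of 0.652, with a log2 fold change of -0.60 (SE 0.17, 95% interval -0.96 to -0.25, adjusted p = 0.0140). Vector replicate 2 was the highest library, and without it the log2 fold change was -0.41 and not past the threshold (adjusted p = 0.0899). With limma on log2(FPKM + 1) the adjusted p of TSPAN14 was 0.0795. TSPAN15 (69451473-69507669) was at 27.7, 29.6 and 26.1 FPKM in Vector and 21.4, 26.9 and 26.6 FPKM in OE-MMP28, with overlapping groups and a log2 fold change of -0.14 (SE 0.15, adjusted p = 0.548).

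Other genes of chromosome 10 moved in the same direction as TSPAN14. Of 610 tested genes on this chromosome, 246 fell (40.3%, beside 11.6% of all tested genes), 17 rose, and the median log2 fold change was -0.47. Within 5 Mb of TSPAN14, 23 other tested genes had a median of -0.38, 19 were negative and 6 fell past the threshold. Around TSPAN15, 83 tested genes had a median of -0.45, of which 35 fell and 4 rose. Relative to the local median, TSPAN14 was at -0.22 (adjusted p = 0.422), no longer past the threshold, and TSPAN15 turned to 0.31 (adjusted p = 0.188). Chromosome 11, which holds CD81, CD82 and CD151, went the other way, with 221 of 894 tested genes higher, 40 lower and a median of 0.26. The neighbourhood medians of the other 8 members were between -0.06 and 0.07, and relative to them TSPAN8 was at 0.61 (adjusted p = 0.00725) and CD9 at 0.59 (adjusted p = 0.0138).

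**Figure D2:**
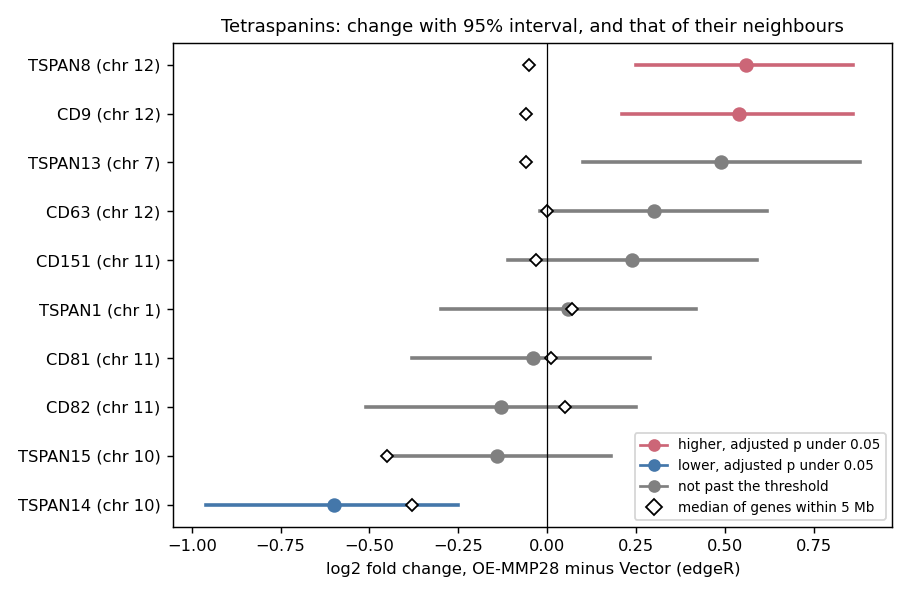
Log2 fold change of each tetraspanin (filled circle) with its 95% interval from edgeR, red or blue where the adjusted p is under 0.05 and grey otherwise, with the median log2 fold change of the other tested genes within 5 Mb as an open diamond. The diamonds lie near 0 except at the chromosome 10 genes TSPAN15 (-0.45) and TSPAN14 (-0.38).

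Ranked by length-scaled level in Vector, TSPAN8 was followed by CD63, TSPAN1, CD9, CD151, TSPAN15, CD82, TSPAN13, CD81 and TSPAN14. The lengths used ran from 2224 bases for TSPAN13 to 7394 for CD81 and 17888 for TSPAN14, and the order depends on them. The ranges of the 3 libraries overlapped for the neighbours TSPAN1 and CD9, TSPAN15 and CD82, and TSPAN13 and CD81, and for no other neighbours. In OE-MMP28 CD9 ranked above TSPAN1, which still overlapped, and TSPAN13 had moved clear of CD81 and overlapped CD82. From the highest to the lowest member the means ran from 414.9 to 4.01 FPKM in Vector and from 605.1 to 2.61 FPKM in OE-MMP28. The spread within a group ranged from a coefficient of variation of 3.04% for CD81 to 28.2% for TSPAN1 in Vector, and from 2.72% for TSPAN8 to 23.5% for CD151 in OE-MMP28.

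The summed level of the 10 tetraspanins was 831.1, 979.0 and 791.1 FPKM in Vector and 1082.4, 1122.8 and 1197.2 FPKM in OE-MMP28. Most of that difference was TSPAN8, since the other 9 members together were at 452.2 ± 55.2 FPKM in Vector and 529.1 ± 56.3 FPKM in OE-MMP28 (SD, n = 3 each) and overlapped between the groups. TSPAN8 made up 43.3, 49.4 and 50.7% of the sum in Vector and 56.6, 52.2 and 51.5% in OE-MMP28. TSPAN14 made up 0.459 ± 0.0461% of it in Vector and 0.231 ± 0.0228% in OE-MMP28. These shares also depend on the sum, whose mean was 867.1 FPKM in Vector and 1134.1 FPKM in OE-MMP28. The ratio of the FPKM means of TSPAN14 itself was 0.652. OE-MMP28 replicate 1 was the lowest library of its group for 8 of the 10 members and OE-MMP28 replicate 3 the highest for 6.

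**Figure D3:**
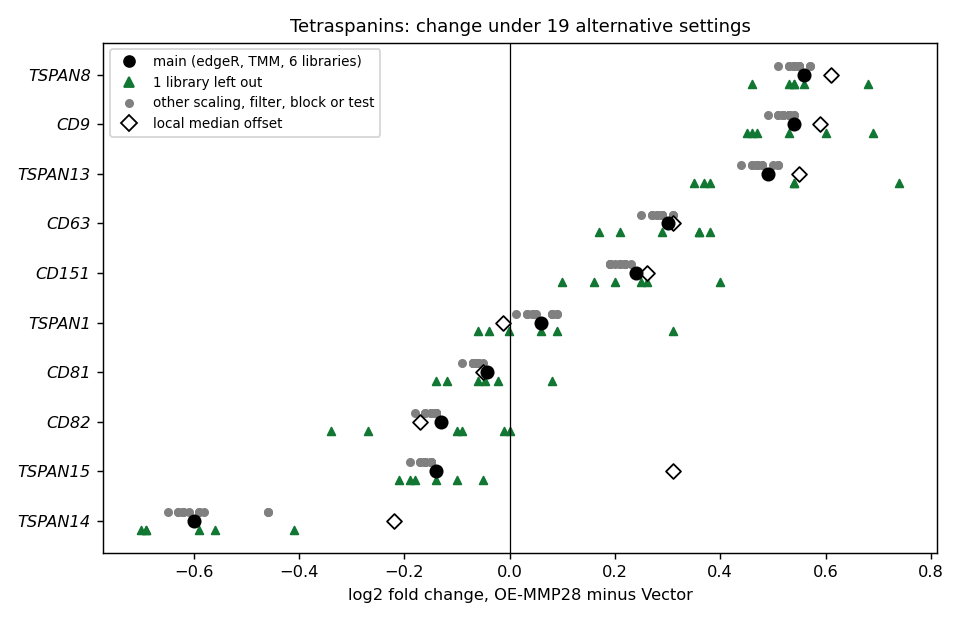
Log2 fold change of each tetraspanin in edgeR with all 6 libraries (black circle) and under 19 alternatives, with leave-one-out fits as green triangles, other scalings, filters, tests and the replicate block as grey points, and the value relative to the local median as an open diamond. TSPAN8, CD9, TSPAN13, CD63 and CD151 stay above 0 and TSPAN14 stays below 0 in all of them, while TSPAN1, CD81, CD82 and TSPAN15 cross 0.

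The rest of the tetraspanin family was counted from a list of 23 further genes, of which 11 could be tested, 2 rose and 1 fell (27.3%, median log2 fold change 0.01). TSPAN5, another ADAM10 escort, was barely detected, with 2, 3 and 3 counts in Vector and 30, 32 and 22 counts in OE-MMP28. Summed over libraries this was 8 against 84 counts, a ratio of 9.37 in CPM (95% counting interval 4.54 to 22.4), with an adjusted p of 0.000198 in edgeR. It entered the test only through the OE-MMP28 libraries, so its call is no support for the count of 2. Requiring at least 10 counts in every library left TSPAN5 out of the test by its Vector counts. Under that filter TSPAN11 was tested and not called (adjusted p = 0.0586, edgeR). TSPAN33, of the same group, fell, with 70, 84 and 79 counts in Vector and 31, 46 and 54 in OE-MMP28 (log2 fold change -0.98, SE 0.28, adjusted p = 0.0156), and was not past the threshold without OE-MMP28 replicate 1 (adjusted p = 0.0559). TSPAN11 rose by a log2 fold change of 0.54 (adjusted p = 0.0439), a call lost in 16 of 19 alternatives. Of the 6 TspanC8 genes, grouped after their values were seen, TSPAN5 rose, TSPAN14 and TSPAN33 fell, TSPAN15 and TSPAN17 (log2 fold change 0.17, adjusted p = 0.490) did not pass the threshold, and TSPAN10 had too few counts to be tested. ADAM10 itself was at 10.2 ± 0.778 FPKM in Vector and 11.6 ± 2.35 FPKM in OE-MMP28, with an adjusted p of 0.396.

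Binding partners of tetraspanins came from a list of 22 genes, of which 21 were tested, 4 rose and 2 fell (28.6%, median log2 fold change 0.20). Among the laminin-binding integrin subunits that pair with CD151, ITGA3 rose from 17.8 ± 2.82 to 26.3 ± 1.98 FPKM (log2 fold change 0.58, SE 0.15, adjusted p = 0.00936), and that call was lost without Vector replicate 3 (adjusted p = 0.0672) or OE-MMP28 replicate 2 (adjusted p = 0.0713). ITGA6 (log2 fold change 0.51, adjusted p = 0.0597) and ITGB4 (0.42, adjusted p = 0.0825) did not pass in the edgeR fit. ITGA6 passed without Vector replicate 1 (adjusted p = 0.00255) or OE-MMP28 replicate 3 (adjusted p = 0.0366), with no low-count filter (adjusted p = 0.0172) and relative to its local median (0.79, adjusted p = 0.00816), and ITGB4 without Vector replicate 2 (adjusted p = 0.0128). The shared beta subunit ITGB1, on chromosome 10, was at -0.14 (adjusted p = 0.561), turning to 0.44 relative to its local median. PTGFRN, the immunoglobulin-like protein that binds CD9 and CD81, fell from 2.71 ± 0.312 to 0.992 ± 0.109 FPKM (log2 fold change -1.43, SE 0.20, adjusted p = 4.03e-05), and this held in all 19 alternatives. The related IGSF8 was at -0.15 (adjusted p = 0.643). TIMP1, a soluble protease inhibitor that binds CD63, rose from 65.0 ± 5.47 to 98.7 ± 14.4 FPKM (log2 fold change 0.62, adjusted p = 0.00660). The hyaluronan receptor CD44, found in TSPAN8 complexes, rose from 26.4 ± 2.20 to 45.1 ± 3.70 FPKM (log2 fold change 0.78, adjusted p = 0.000585), whereas EPCAM (-0.11, adjusted p = 0.617) and CLDN7 (0.29, adjusted p = 0.216), which join the same complexes, did not pass, CLDN7 doing so without OE-MMP28 replicate 1 (0.44, adjusted p = 0.0428). The receptor kinase MET rose (0.47, adjusted p = 0.0338, lost in 9 of 19 alternatives, 4 of them a left-out library, with adjusted p from 0.0657 without Vector replicate 3 to 0.170 without OE-MMP28 replicate 2), and the lipid kinase PI4K2A on chromosome 10 fell (-0.83, adjusted p = 0.00202), a fall that was -0.35 relative to its local median and not past the threshold (adjusted p = 0.188).

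Genes of vesicle formation, a list of 29 that were all tested, moved both ways, with 4 higher and 5 lower (31.0%). The split was 2 higher and 9 lower with upper-quartile scaling, 3 and 8 with DESeq2, 4 and 8 with DESeq2 size factors in edgeR, and 4 and 9 without mitochondrial genes. ARF6, a small GTPase of endocytic recycling, rose from 33.7 ± 2.51 to 73.3 ± 5.30 FPKM (log2 fold change 1.13, adjusted p = 1.48e-05). The neighbours of ARF6 had a median of 0.62, and relative to it ARF6 was at 0.52 (adjusted p = 0.0181). FLOT2, a scaffold of lipid microdomains, fell from 25.3 ± 4.67 to 12.5 ± 1.23 FPKM (log2 fold change -1.01, adjusted p = 0.000242), and RAB27B, a GTPase of vesicle docking, fell by 0.92 on the log2 scale (adjusted p = 0.00501). The ESCRT genes CHMP4C (-0.87) and VPS4A (-0.52) and the syndecan SDC1 (-0.50) also fell, and CHMP2A (0.54), RAB7A (0.55) and SMPD3 (0.86) rose. The calls of CHMP2A and SMPD3 were each lost in 9 of 19 alternatives, and with 1 library left out the adjusted p was highest without OE-MMP28 replicate 3 for CHMP2A (0.206) and without OE-MMP28 replicate 2 for SMPD3 (0.226). RAB7A was not past the threshold without Vector replicate 3 (adjusted p = 0.0586), nor was VPS4A without it (adjusted p = 0.0827) or without OE-MMP28 replicate 2 (adjusted p = 0.104). SDCBP (-0.03, adjusted p = 0.920) and PDCD6IP (0.15, adjusted p = 0.496), which load tetraspanin-bearing vesicles together with syndecans, did not pass. Relative to local medians, RAB7A turned to -0.049 and SDC1 to 0.04, and VPS4A was at -0.14 (adjusted p = 0.604) and CHMP4C at -0.48 (adjusted p = 0.0644). The last list held 14 genes of late endosome and lysosome membranes, where CD63 resides, and of clathrin and related adaptors. LAMP1, a lysosomal membrane protein (0.68, adjusted p = 0.00641), and AP2M1, a subunit of the plasma membrane adaptor AP-2 (0.55, adjusted p = 0.0123, but 0.09 relative to its local median), were the 2 called by edgeR, both higher (14.3%). LAMP1 was not past the threshold without OE-MMP28 replicate 2 (adjusted p = 0.0529), nor was AP2M1 without that library (adjusted p = 0.0775) or Vector replicate 3 (adjusted p = 0.0998).

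Over these 4 lists together, 12 of 75 tested genes rose and 8 fell (26.7%). The 12 include TSPAN5, which entered the test only through the OE-MMP28 libraries. With at least 10 counts required in every library, which left TSPAN5 out, 10 were higher and 13 lower. The split depended on scaling, being 8 higher and 13 lower with upper-quartile scaling and 11 higher and 13 lower with mitochondrial genes left out. Calls in the lists were thus about as frequent as the 23.4% over all tested genes, with no common direction.

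**Figure D4:**
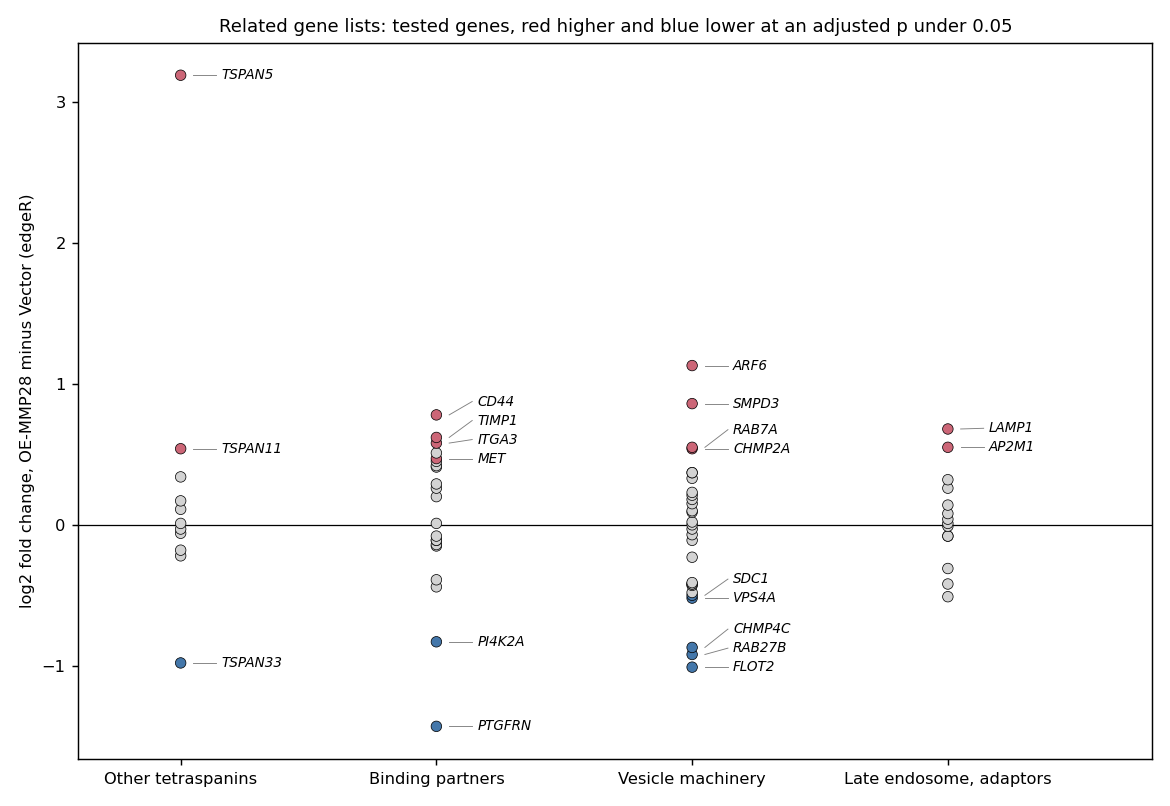
Log2 fold change (edgeR, OE-MMP28 minus Vector) of every tested gene of 4 related lists, red where higher and blue where lower at an adjusted p under 0.05 and grey otherwise. Called genes lie on both sides of 0 in each list except the list of late endosome and adaptor genes, and the height of TSPAN5 is a fitted value that rests on 8 counts in Vector.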

How the data were processed

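The authors deposited 1 table with read counts and FPKM for each of 6 libraries. The submitters' processing notes name HISAT2 2.0.5 and featureCounts 1.5.0-p3. The library kit named in the labels does not mark strand, and strand use in counting was not given in the sources used here. No genome build was stated, but the coordinates of all 58735 genes equal those of GENCODE 29 on GRCh38, with 58708 equal symbols. FPKM values were used as deposited by the authors, and library totals implied by the FPKM differ by -2.01 to 2.02% from the summed counts. Columns with group means and the authors' own comparison (log2 fold changes and p-values) were not used.

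Counts were tested with edgeR 4.0.16 in R 4.3.3 (low-count filter filterByExpr at 10 counts in enough libraries and 15 in total, TMM scaling, quasi-likelihood test, group as the only term, Benjamini-Hochberg over all tested genes). A prior count of 2 was used only for the log2 CPM behind the replicate correlations and the closest patterns. The study's methods name limma for the RNA-seq comparison, and counts need a count model, so limma 3.58.1 and DESeq2 1.42.0 served as alternatives. For limma on FPKM, pseudocounts of 1 and 0.1 and a mean of at least 0.5 FPKM were used. Local medians were taken over the other tested genes within 5 Mb, with at least 5 such genes. They came from the same libraries and entered the edgeR fit as fixed offsets. The adjusted p-values relative to them therefore leave out the error of the median. SDs are over 3 libraries. The scripts were tested on simulated data. Within groups, libraries differed by more than sampling noise and none was a duplicate.

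The members and gene lists were chosen with earlier results of these data known. All 10 members, MMP28, list genes past the threshold, list genes with too few counts and 12 listed partners and vesicle genes could be named, together with the 3 genes closest in pattern to the members with the largest called rise and fall. Cell type markers were summarised by list, with markers outside that rule (PTPRC, LUM, KDR, TEK) named after their values were seen. The same holds for TSPAN17. Promoter windows came from RefSeq (GRCh38.p14).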

Additional observations from a re-analysis of the deposited data

How the results depend on the processing

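Of 190 values of the 10 members under 19 alternatives, 169 kept their direction and their side of the threshold. TSPAN8 lost its call only with limma on FPKM without a filter (adjusted p = 0.145). Members called higher, 2 by edgeR, numbered 1 with limma on log2(FPKM + 1) or log2(FPKM + 0.1), 0 without the FPKM filter and 0 when an unadjusted p under 0.05 had to go with a log2 fold change beyond 1 in size; 1 member called lower became 0 under the same alternatives and relative to local medians. Leaving out 1 library gave 1 to 3 higher and 0 to 1 lower. The related lists, 12 higher and 8 lower, gave 7 higher with limma on log2(FPKM + 1) or log2(FPKM + 0.1), 3 higher and 4 lower without the FPKM filter and 2 each with the fold threshold; 13 were lower with upper-quartile scaling, with at least 10 counts in every library or without mitochondrial genes. Leaving out 1 library gave 5 to 12 higher (5 without Vector replicate 3 or OE-MMP28 replicate 2) and 7 to 10 lower. The cause of these shifts was not tested. Over all genes, 3579 calls became 2029 without OE-MMP28 replicate 2, 2367 without Vector replicate 3, 2368 relative to local medians, 1974 and 1970 with limma on FPKM with pseudocounts of 1 and 0.1, and 670 without the FPKM filter.

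Some values changed sign. Relative to local medians TSPAN1 was at -0.012, TSPAN15 at 0.31, RAB7A (called, 0.55) at -0.049, SDC1 (called, -0.50) at 0.04, ITGB1 at 0.44, EPCAM at 0.33 and SDCBP at 0.33. Leaving out 1 library gave CD81 -0.14 to 0.08 and CD82 -0.34 to 0.0012, positive without OE-MMP28 replicate 1. TSPAN1 ran from -0.06 to 0.31, negative without Vector replicate 1 or 3 or OE-MMP28 replicate 3. The ranges were -0.28 to 0.021 for ITGB1, -0.30 to 0.02 for IGSF8 and -0.14 to 0.028 for SDCBP.

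Deviations of same-numbered libraries correlated at 0.0168, 0.00798 and -0.0876, so no shared effect of replicate number was seen. Whether the replicates were prepared in pairs cannot be told from these values. With replicate number as a block, 3685 genes were called, 3 members were higher (TSPAN13 added, adjusted p = 0.0309) and 1 lower, and the related lists gave 13 higher and 9 lower, with ITGA6 (adjusted p = 0.0149) and ITGB4 (adjusted p = 0.0476) past the threshold.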

Other observations

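Tetraspanins of other tissues were at or near the floor in these cells. Of the 12 family genes with too few counts to be tested, TSPAN2, TSPAN19, TSPAN32 and UPK1B were at 0 in all 6 libraries, and the highest count of any of the 12 in a library was 16, in TSPAN10. CD37, a leukocyte tetraspanin, had 1 to 7 counts a library. CD53, another leukocyte tetraspanin, had 0, 0 and 2 counts in Vector and 4, 5 and 3 in OE-MMP28, too few to be tested.

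The genes whose pattern over the 6 libraries was closest to TSPAN8, by the root mean square difference of mean-centred log2 CPM among 12257 genes, were HIKESHI (0.063), NUDT16P1 (0.071) and HADH (0.073), where the median gene was at 0.38. For TSPAN14 they were WDTC1 (0.059), TEAD3 (0.060) and NRIP2 (0.066), with a median of 0.43. The libraries are shared by all these genes, so this is a description of these 6 libraries.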
